A study of Drosophila melanogaster with 2 samples.

Results

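Binding of CG4854 was described at 10 Dpp pathway and dorsal ectoderm genes of Drosophila melanogaster, out of 13945 protein-coding genes. They were chosen by name: dpp, scw, sog, tld and brk of the pathway, and its dorsal targets zen, tup, Doc1, Doc2 and Doc3. The data are chromatin immunoprecipitation sequencing (ChIP-seq) peak lists from 2 biological replicates, numbered 2 and 3, which form the single group. Each replicate was whole, mixed-sex embryos collected over 0 to 24 hours of development, from a stable transgenic line in which CG4854 carries eGFP at its C terminus. The tagged protein, a zinc finger protein of the insect ZAD family, was precipitated with anti-GFP antibody. A 24-hour collection mixes embryos of all ages, so a peak cannot be placed in time or in a cell type, and the labels name neither the promoter of the transgene nor any rescue by it. No untagged or mock control group was analysed here, and the number of reads is unknown.

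Dpp is a bone morphogenetic protein (BMP) ligand whose activity is highest along the dorsal midline of the early embryo. There it acts with a second ligand, Scw, while the antagonist Sog holds both back and is cut by the protease Tld. Signalling switches off brk, which encodes a repressor of Dpp targets, and switches on zen, tup and the Doc genes, which encode transcription factors of the amnioserosa and dorsal ectoderm. Long-distance enhancers in introns and flanks are known to drive several of these genes.

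Each peak has a signal, the authors' score, used here to rank it within its own list. The IDR set (peaks past a threshold on the irreproducible discovery rate, a measure of how well ranks repeat) held 3106 peaks on the dm6 genome build. They were also the 3106 strongest of the 30000 pooled candidates, so an IDR rank is also the pooled rank. Signals in the IDR set spanned 95.2 to 1775.6 (median 146). Each replicate had its own list of 30000 candidates, with signals from 12.6 to 988.3 in replicate 2 and from 12.3 to 850.2 in replicate 3.

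No member carried an IDR peak at its own promoter, taken as a summit within 500 bp of a transcription start site (TSS) of a coding transcript. Over all protein-coding genes the share was 15.8%. A count of 0 of 10 genes allows a share of up to 30% when 3 counts are taken as the limit, or 30.8% as the upper bound of the exact Clopper-Pearson 95% interval, so a difference from the background was not detectable with 10 genes. By contrast, 7 of the 10 had an IDR summit in the gene or within 10 kb of it, against a background of 53% of genes (exact Clopper-Pearson 95% interval for the members, 34.8% to 93.3%, which holds the background). All 7 are therefore genes with IDR peaks nearby but none at the start site, a class that held 37.2% of all protein-coding genes. Of the 8 members with introns, dpp and sog had an IDR summit in one, against 5.86% of the 11819 genes with introns. The exact Clopper-Pearson 95% interval for these members, 3.19% to 65.1%, holds that background. The introns holding the summits were 26006 bp long in dpp and 10523 bp in sog, and intron length was not taken into account. Intervals and limits cover counting error only, and neighbouring genes share peaks.

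Around the members lay 14 distinct IDR peaks, of which brk had 1, dpp, sog, tup, Doc1 and Doc2 had 2 each, and zen had 3. For 7 of the summits, 201 bp of genome sequence centred on the summit is shown. All but 1, an Ama promoter window given further on, lie outside promoters and were chosen because such sites carry the results. The sequences were read from the plus strand of the RefSeq genome, Release 6, and are printed 5′ to 3′. Capitals mark any match to the words searched, listed further on.

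The strongest peak, upstream of brk at chrX:7307056-7307256 (summit X, 7307156), held no such match.

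brk upstream: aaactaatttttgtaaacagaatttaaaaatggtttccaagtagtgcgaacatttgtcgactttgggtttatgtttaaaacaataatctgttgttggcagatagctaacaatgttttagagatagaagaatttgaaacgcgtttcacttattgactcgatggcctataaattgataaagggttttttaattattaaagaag

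The strongest peak of the Doc cluster, upstream of Doc2, is shown at chr3L:9025778-9025978 (summit 3L, 9025878).

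Doc2 upstream: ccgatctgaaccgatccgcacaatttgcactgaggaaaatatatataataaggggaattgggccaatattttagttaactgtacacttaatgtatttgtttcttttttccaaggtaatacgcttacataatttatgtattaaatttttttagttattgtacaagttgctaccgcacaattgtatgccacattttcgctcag

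The sog intron peak is shown at chrX:15622954-15623154 (summit X, 15623054).

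sog intron: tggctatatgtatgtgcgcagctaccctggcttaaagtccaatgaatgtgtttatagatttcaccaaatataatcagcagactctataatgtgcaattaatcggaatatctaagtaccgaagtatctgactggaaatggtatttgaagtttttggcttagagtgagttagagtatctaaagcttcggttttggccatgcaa

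The dpp peaks are shown at chr2L:2433544-2433744 for the intron (summit 2433644) and chr2L:2426512-2426712 for the upstream site (summit 2426612).

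dpp intron: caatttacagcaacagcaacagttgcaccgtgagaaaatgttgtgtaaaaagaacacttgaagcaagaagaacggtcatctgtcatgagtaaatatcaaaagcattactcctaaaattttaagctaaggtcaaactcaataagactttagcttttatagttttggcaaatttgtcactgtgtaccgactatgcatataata

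dpp upstream: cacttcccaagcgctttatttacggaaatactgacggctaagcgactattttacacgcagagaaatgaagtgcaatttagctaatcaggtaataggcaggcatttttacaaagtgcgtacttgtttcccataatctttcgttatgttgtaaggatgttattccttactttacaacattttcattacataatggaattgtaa

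The distal tup peak is shown at chr2L:18890155-18890355 (summit 2L, 18890255), where the capitals mark a match to the core of the insulator protein BEAF-32.

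tup upstream: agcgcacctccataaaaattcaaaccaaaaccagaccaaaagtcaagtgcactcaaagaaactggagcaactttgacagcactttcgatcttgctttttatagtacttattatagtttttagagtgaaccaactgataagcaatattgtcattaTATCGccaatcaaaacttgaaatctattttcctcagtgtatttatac

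**Figure D1:**
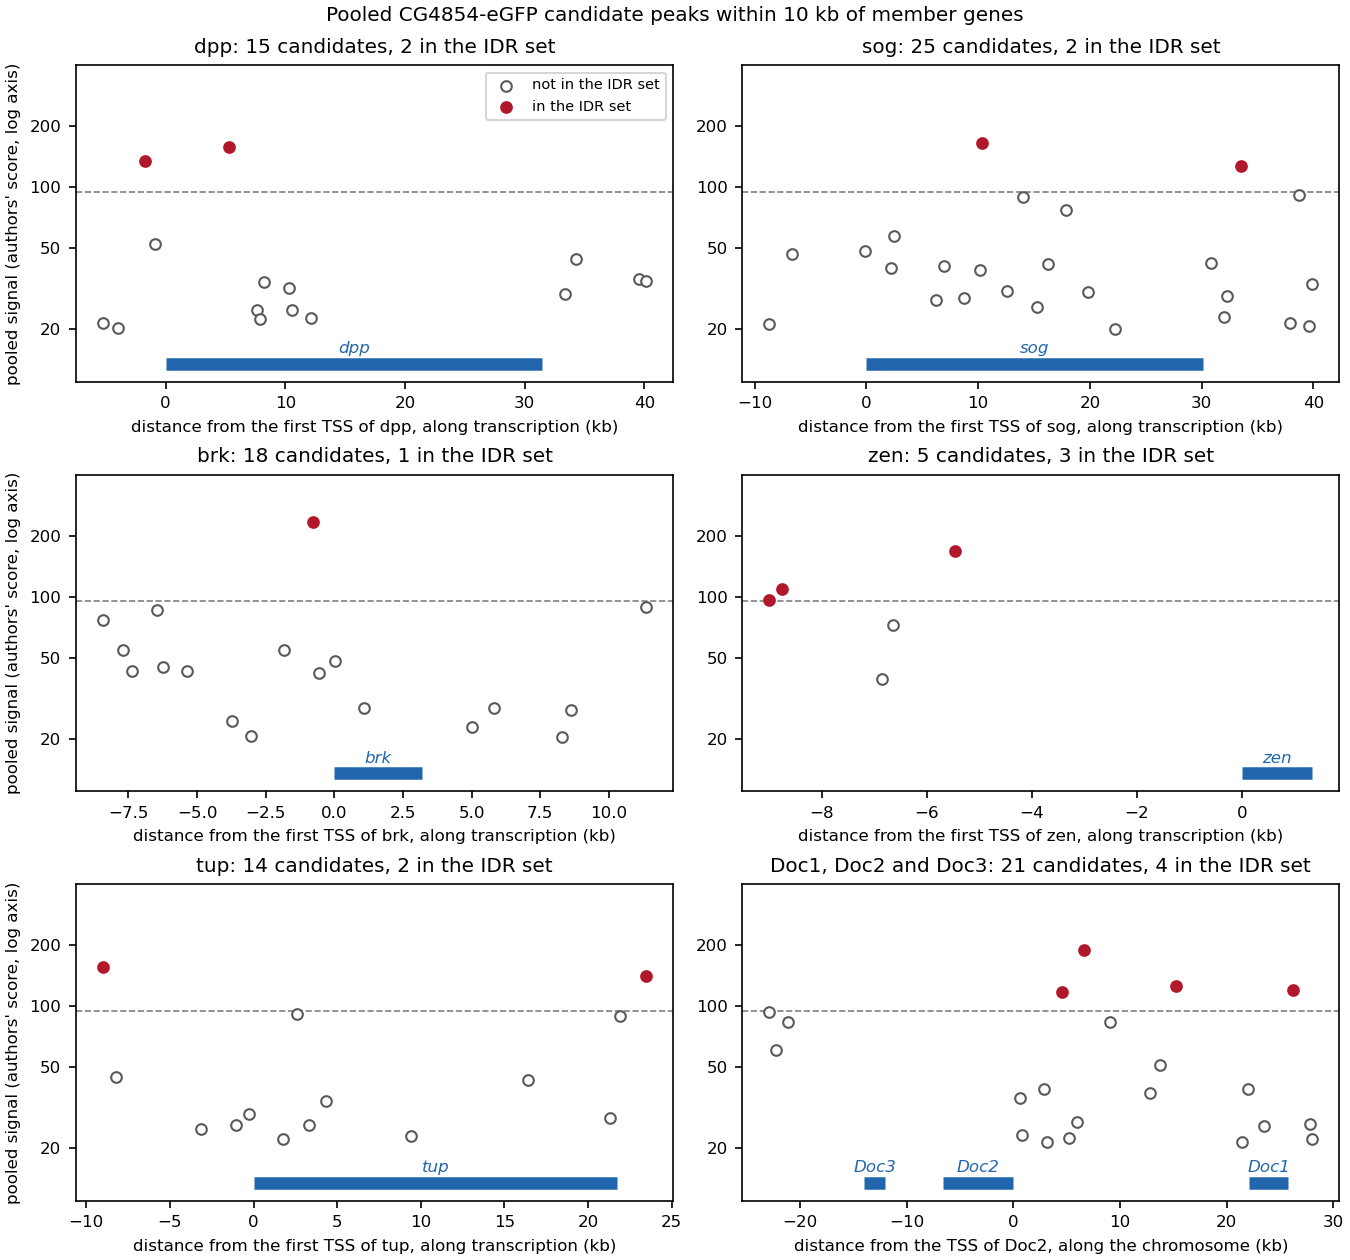
Pooled candidates within 10 kb of 8 members. Each point is a summit, by distance from the TSS (horizontal, kb) and pooled signal (vertical, authors' score, log axis); filled points are in the IDR set, the dashed line is the lowest IDR signal of 95.2, and blue bars are gene spans. The filled points lie upstream, downstream or within genes and none lies within 500 bp of a member's TSS. No candidate lay within 10 kb of tld or scw.

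Candidates of any strength lay within 10 kb of 8 of the 10 members in each of the 3 lists. Over all genes the shares were 83.9% in the pooled list, 89.5% in replicate 2 and 85.2% in replicate 3.

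The ligand genes differed. The dpp gene (FBgn0000490; 2L, 2428372 to 2459823, plus strand) has 4 coding TSSs and had 2 IDR peaks. The stronger (2L, 2433556 to 2433711) had its summit 5272 bp past the TSS at 2428372, in the intron from 2429051 to 2455056. Its signal was 158.4 in the pooled list (rank 1340), 94.1 in replicate 2 (rank 1083) and 66.3 in replicate 3 (rank 1971). The other (2L, 2426410 to 2426813) lay 1760 bp upstream of the same TSS. It had a signal of 135.4 (rank 1752), with 83.5 in replicate 2 (rank 1354) and 49.8 in replicate 3 (rank 3396). Both dpp peaks thus had a higher signal and a better rank in replicate 2 than in replicate 3. All 15 pooled candidates around dpp had a median signal of 32.0, so these 2 stood well above the rest of the locus in the pooled list. Both replicate lists also held a candidate upstream of dpp, 193 bp from the TSS of CG9886 in replicate 2 (summit 2420637). Its signal was 69.3 in replicate 2 (rank 1859) and 41.4 in replicate 3 (rank 4654). The pooled list had none within 100 bp of it.

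The gene of the partner ligand, scw (FBgn0005590; 2L, 19699379 to 19700968, minus strand), had no candidate within 10 kb in the pooled list or in either replicate list. It lay in a candidate-free stretch of 114889 bp in the pooled list, 110217 bp in replicate 2 and 129172 bp in replicate 3. The nearest pooled candidate was 55560 bp from the gene, with a signal of 30.9 (rank 16604). The tld gene (FBgn0003719; 3R, 24749731 to 24753510, plus strand), which encodes the metalloprotease that cuts Sog, also had no candidate within 10 kb in any list. Its nearest pooled candidate was 15493 bp away and was an IDR peak, with a signal of 274.7 (rank 457) in the pooled list and ranks of 394 and 589 in replicates 2 and 3. The candidate-free stretch around tld measured 49321 bp in the pooled list. A gene with no candidate within 10 kb in any of the 3 lists was not rare, since 8.96% of protein-coding genes had none. Pooled stretches at least as long as that of scw held 8.35% of genes, and as that of tld, 18.3%.

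The antagonist gene sog (FBgn0003463; X, 15603283 to 15633434, minus strand) had the most pooled candidates of the members, 25, of which 13 lay in its introns. Those 25 lay in 50152 bp searched, or 4.98 per 10 kb, fewer than the 7.76 per 10 kb at brk. The IDR peak in the intron from 15614907 to 15625429 (X, 15622957 to 15623139) lay 3486 bp past the TSS at 15626540. Its signal was 166.3 (rank 1216), with nearly equal ranks in the replicates, 1393 in replicate 2 (signal 82.4) and 1411 in replicate 3 (78.3). The other IDR peak (X, 15599712 to 15600115) lay past the 3′ end of sog and 6380 bp from the nearest TSS, that of Chsy. It had a signal of 127.0 (rank 1960), 66.5 in replicate 2 (rank 2004) and 56.7 in replicate 3 (rank 2649). Further intron candidates of sog fell short of the IDR set, the strongest in the same intron as the IDR peak. That candidate (summit 15619439) had a signal of 89.3 (rank 3422), with 37.3 in replicate 2 (rank 4980) and 59.4 in replicate 3 (rank 2417).

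The repressor gene brk (FBgn0024250; X, 7307939 to 7311132, plus strand) had the strongest IDR peak near any member. The peak (X, 7306977 to 7307266) lay 783 bp upstream of the TSS, inside an intron of CG1677. Its signal was 232.8 (rank 646), 130.6 in replicate 2 (rank 580) and 99.4 in replicate 3 (rank 918), so it was the strongest of the 14 in each of the 3 lists. It was also the member peak closest to a member's own TSS. In replicate 2 a second candidate (summit 7307349) lay 590 bp upstream of the TSS, with a signal of 53.2 (rank 2833), and replicate 3 had none within 100 bp. The pooled list had it at 42.2 (rank 10357). Around brk, pooled candidates were dense, with 18 in 23194 bp, or 7.76 per 10 kb, against a median of 2.77 over all protein-coding genes (percentile 97.1 of those genes). Only the 1 peak reached the IDR set, and the 18 had a median signal of 43.1.

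**Figure D2:**
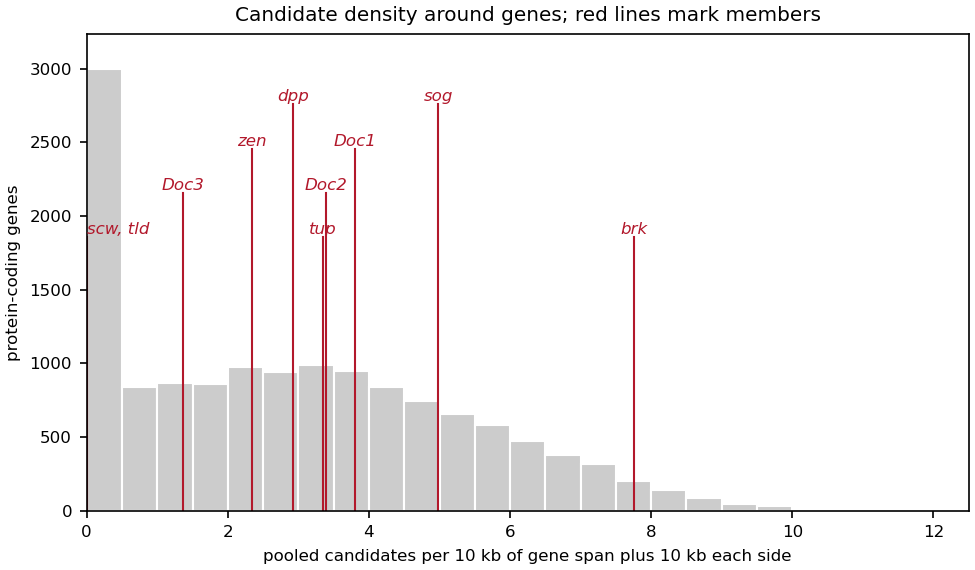
Density of pooled candidates around 13945 protein-coding genes. The horizontal axis is candidates per 10 kb of the gene span with 10 kb on each side, the vertical axis is the number of genes, and red lines mark the members. The members run from 0 at scw and tld to 7.76 at brk, and dpp (2.92) lies near the median of 2.77.

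Among the targets, zen and the Doc cluster differed in whose promoter lay nearest. The homeobox gene zen (FBgn0004053; 3R, 6752864 to 6754194, minus strand), which specifies amnioserosa, had 3 IDR peaks within 10 kb, more than any other member. None was nearest to the TSS of zen. The strongest (summit 3R, 6759649) lay 183 bp from the TSS of bcd, the anterior morphogen gene of the same complex. It had a signal of 168.6 (rank 1183), 82.0 in replicate 2 (rank 1403) and 91.4 in replicate 3 (rank 1062). The other peaks lay between the 2 coding TSSs of Ama, which encodes a secreted immunoglobulin-domain protein. Their summits were 357 bp past the TSS at 6762593 and 219 bp before the TSS at 6763404. Their signals were 109.8 (rank 2470) and 96.2 (rank 3049), and the replicate signals were 67.0 and 47.4 in replicate 2 and 40.0 and 41.4 in replicate 3. No candidate of the pooled list or replicate 3 lay within 5 kb of zen. The nearest in replicate 2, 1907 bp away, had a signal of 12.8, close to the lowest in that list.

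The window at the weaker Ama summit, chr3R:6763085-6763285 (summit 6763185), is shown because it held 1 of the 3 matches to the SMAD palindrome found at all 3106 IDR summits. The capitals mark that word and a BEAF-32 core.

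Ama promoter: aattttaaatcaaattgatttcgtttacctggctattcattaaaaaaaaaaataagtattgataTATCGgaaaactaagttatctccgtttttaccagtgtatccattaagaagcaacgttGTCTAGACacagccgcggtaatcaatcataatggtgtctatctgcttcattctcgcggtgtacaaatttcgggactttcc

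The Doc genes encode T-box factors and lie together on 3L, Doc3 (FBgn0035954; 9005196 to 9007249, plus strand), Doc2 (FBgn0035956; 9012686 to 9019246, minus strand) and Doc1 (FBgn0028789; 9041375 to 9045042, plus strand). Doc2 and Doc1 are transcribed away from each other from TSSs 22129 bp apart. That interval holds no other protein-coding gene, and it held 3 of the 4 IDR peaks of the cluster. It also held 14 pooled candidates, so 21.4% of them were in the IDR set. The share was 10.4% of all pooled candidates and 14.3% of the 98 around members. With 3 of 14 candidates, a difference from either share was not detectable. The strongest IDR peak of the interval (3L, 9025807 to 9026032) lay 6632 bp upstream of Doc2. Its signal was 188.9 (rank 975), 96.8 in replicate 2 (rank 1027) and 91.0 in replicate 3 (rank 1071). A neighbour 4602 bp upstream of Doc2 (3L, 9023646 to 9024049) had a signal of 118.0 (rank 2202). It was higher in replicate 3, at 70.0 (rank 1749), than in replicate 2, at 45.0 (rank 3668). The third (3L, 9034263 to 9034666), 6910 bp upstream of Doc1, had a signal of 126.4 (rank 1979), with 60.3 in replicate 2 and 64.3 in replicate 3.

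The last IDR peak of the cluster (3L, 9045277 to 9045680) lay 437 bp past the 3′ end of Doc1 and 1960 bp from the TSS of Argk2, an arginine kinase gene. Its signal was 119.9 (rank 2146), with 54.0 in replicate 2 (rank 2761) and 62.6 in replicate 3 (rank 2200). Doc3 had no IDR peak within 10 kb. Its 3 pooled candidates lay upstream of it, and the strongest of them, 117 bp from the TSS of smg, fell just short of the IDR set (signal 94.4, rank 3139). Replicate 3 alone had a strong candidate between Doc3 and Doc2 (summit 9011981), with a signal of 75.2 (rank 1521), and neither replicate 2 nor the pooled list had one within 100 bp of it.

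The LIM-homeobox gene tup (FBgn0003896; 2L, 18859507 to 18881261, minus strand), which acts in amnioserosa and heart, had 2 IDR peaks, one past each end of the gene. The stronger (2L, 18890190 to 18890353) lay 8994 bp upstream of tup, which still had the nearest TSS. Its signal was 157.2 (rank 1356), 70.3 in replicate 2 (rank 1818) and 84.0 in replicate 3 (rank 1241). The other (2L, 18857697 to 18857837) lay past the 3′ end of tup and 121 bp from the TSS of CG10602. It had a signal of 140.5 (rank 1643), 80.6 in replicate 2 (rank 1456) and 58.4 in replicate 3 (rank 2493). In the intron of tup from 18865660 to 18880656, 2605 bp past the TSS, a candidate missed the IDR set with a signal of 92.0 (rank 3249). It had 38.5 in replicate 2 (rank 4720) and 53.6 in replicate 3 (rank 2959).

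The IDR threshold ran close to several of these candidates. The weakest member peak inside it was the Ama peak near zen, at 96.2. Just outside lay the candidate near Doc3 at 94.4, the tup intron candidate at 92.0 and a candidate 1135 bp from the TSS of Chsy, past the 3′ end of sog, at 91.7. With the 3716 highest pooled candidates, the number in the IDR set the authors made on the older dm3 build, the distinct peaks around members rose in number from 14 to 21. Doc3 then had a peak within 10 kb and tup one in an intron, and still no member had one at its promoter.

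At the promoters themselves, weak candidates were present at some members. In the pooled list, 4 of 10 had one within 500 bp of a TSS (sog, brk, tup and Doc1), against a background of 50.3%. For sog these lay 159 bp upstream of the TSS at 15633434 and 76 bp inside the gene from that at 15626540, with signals of 48.6 (rank 8449) and 41.1 (rank 10751). For brk the candidate lay 31 bp inside the gene with a signal of 48.5 (rank 8468). Those of Doc1 (39.2, rank 11588) and tup (29.4, rank 17831) were weaker still. All 5 ranked far below the weakest IDR peak at rank 3106.

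Promoter candidates of members were more often listed in replicate 3 than in replicate 2. Replicate 3 had one at 7 of 10 members (background 52.6%), missing zen, tld and scw. Replicate 2 had one at 3 of 10, dpp, sog and Doc1 (background 50.1%). No member had one in replicate 2 alone and 4 had one in replicate 3 alone. Over all protein-coding genes, 7.14% had one in replicate 2 alone and 9.67% in replicate 3 alone. The brk candidate had a signal of 41.7 in replicate 3 (rank 4595) and replicate 2 had none. At the upstream TSS of sog the signal was 36.5 in replicate 3 (rank 5743) and 12.9 in replicate 2 (rank 29091). Doc2 and Doc3 had a promoter candidate in replicate 3 with signals of 17.6 and 21.5 (ranks 18620 and 13601) and none in replicate 2 or the pooled list. At dpp, replicate 2 listed one at the TSS at 2451229 (signal 15.9) and replicate 3 listed ones at 2450193 and 2454737 (12.8 and 20.2), so the replicates did not share a site. Each list is 1 sample, so this difference between replicates was not tested.

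**Figure D3:**
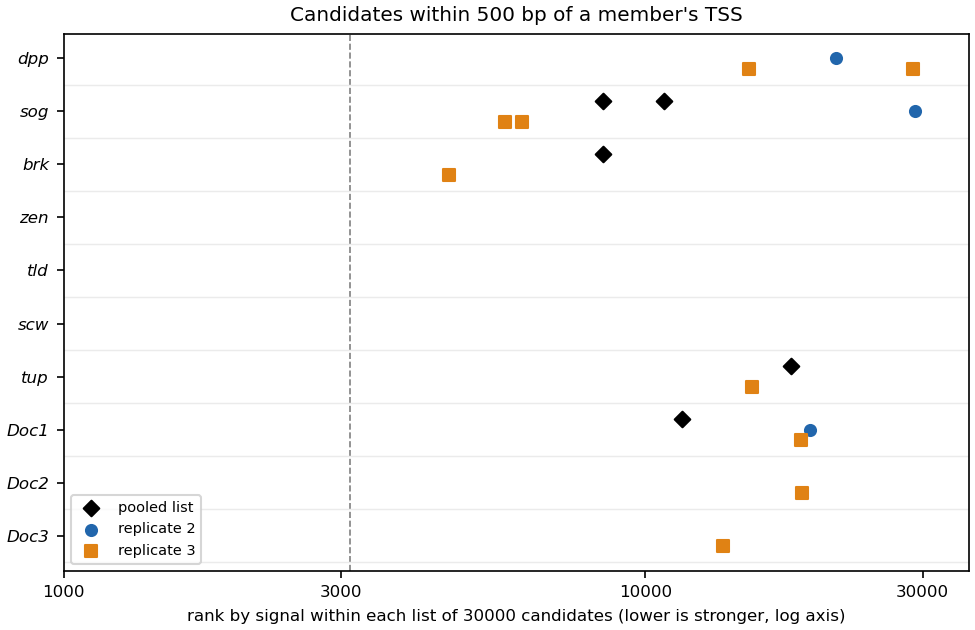
Candidates within 500 bp of a TSS of each member, by rank in the pooled, replicate 2 and replicate 3 lists (horizontal, log axis, lower is stronger). The dashed line is rank 3106, the size of the IDR set. Each marker lies to the right of it, orange markers (replicate 3) cover 7 members and blue ones (replicate 2) cover 3.

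At the 14 IDR summits themselves, both replicates had a candidate within 100 bp, against 94.5% of all IDR summits. Taken as log2 of the signal in replicate 3 over that in replicate 2, the median was -0.14 (range -0.75 to 0.64, SD 0.40 over 14 summits), and over all 2936 IDR summits with both it was -0.07 (SD 0.62). Replicate 2 was higher at 9 of the 14 and replicate 3 at 5. These peaks are described, not tested, since the IDR set was selected for ranks that repeat and both replicates shared a control file. No source states that the signal scales of both replicate lists are the same. Around members, 84 further pooled candidates lay outside the IDR set. Of these, 26 (31.0%) had a match in both replicate lists, 21 in replicate 2 alone, 27 in replicate 3 alone and 10 in neither. Of all pooled candidates outside the IDR set, 29.0% had a match in both.

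**Figure D4:**
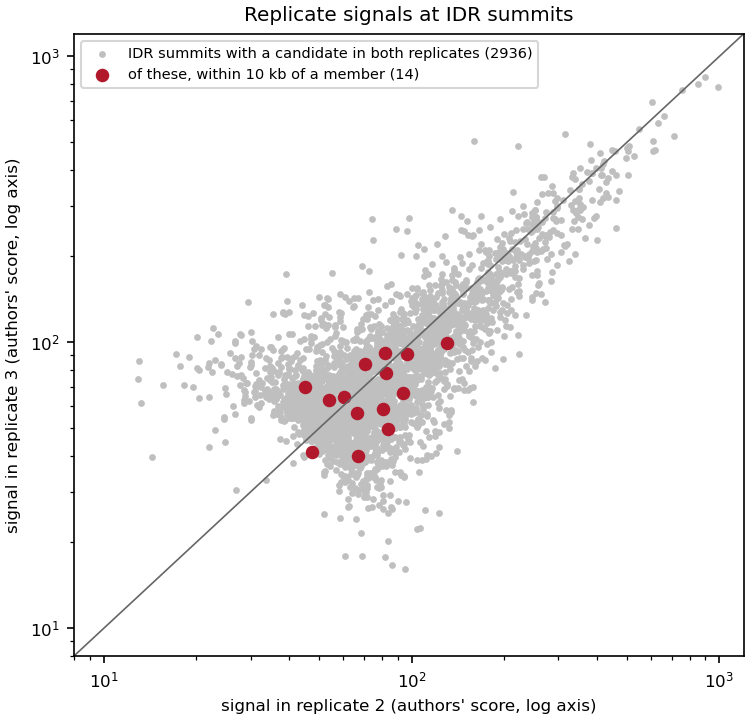
Signals in replicate 2 (horizontal) and replicate 3 (vertical), both on log axes, at the 2936 IDR summits with a candidate in each replicate. Red points are the 14 summits within 10 kb of a member, which lie in the lower and middle range on both sides of the line of equal signal, from 45.0 to 130.6 in replicate 2.

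The sites of these 14 peaks fell into 7 intergenic, 3 intronic and 4 promoter summits, the last at bcd, CG10602 and Ama. Of all IDR summits 54.3% were promoter summits, 31.1% intronic and 13.1% intergenic. None of the 14 was in a coding exon or an untranslated region.

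The GC content of the 14 windows had a median of 34.3% (range 29.4% to 40.8%). All IDR summits had a median of 35.8% (quartiles 31.8% and 40.8%) and other pooled candidates 37.8%, so the members' windows lay near the IDR set as a whole. The brk window and the stronger Ama window shared the lowest value. The words searched on both strands within 100 bp of the summits were the DRE TATCGATA, the BEAF-32 core CGATA, which the DRE contains, the Zelda word CAGGTAG, the E-box CAGGTG and GAGAG. Those of the pathway were the Brinker word TGGCGCC, the related word TGGCGCT, the related word TGGCGTC and the related word TGGCGTT, the SMAD palindrome GTCTAGAC, and the Schnurri-Mad-Medea silencer element. The last word was GGTCACACT of the promoter factor M1BP.

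Of 14 windows, 2 held CGATA (upstream of tup and at Ama), 1 held GAGAG (at bcd) and 1 held GTCTAGAC (at Ama). The other words were found in none. Among all IDR windows CGATA occurred in 32.3%, GAGAG in 22.5% and GTCTAGAC in 0.0966%, and among other pooled candidates in 25.1%, 22.0% and 0.108%. A Brinker word occurred in 9.43% of IDR windows and 7.64% of other candidates, the DRE in 4.93% and 2.08%, and CAGGTG in 5.70% and 6.36%. CAGGTAG occurred in 0.837% and 0.904% and the M1BP word in 1.90% and 1.16%. The silencer element occurred in 1 IDR window of 3106. A count of 0 of 14 says only that the letters are absent from those windows.

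The 8-mers with the largest excess at the other 3092 IDR summits over the other pooled candidates, within 75 bp, were also looked for. The 10 leading ones included CAACACTG (3.27% against 0.937%), AACTATCG (2.52% against 0.706%) and GTTGCCAA (2.75% against 0.959%). At least 1 of the 10 occurred at 18.4% of those summits and at 6.61% of other candidates. None of the 14 windows near members held one, and with so few windows a difference from 18.4% was not detectable.

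Other genes were read from 2 lists. The BMP list of 29 ligands, extracellular regulators, receptors and transducers covers BMP and related signalling and holds 5 of the members. In it, 4 genes (13.8%) had an IDR promoter summit, against the background of 15.8%, and none was a member. They were dlp, a glypican (signal 111.4, rank 2417), wit, a type II receptor (97.9, rank 2962), Dad, the inhibitory Smad (104.2, rank 2706), and shn, a zinc finger partner of Mad and Medea (346.8, rank 273). The shn peak had a signal of 74.1 in replicate 2 and 269.8 in replicate 3, lists whose scales may differ. Within 10 kb, 22 of 29 genes (75.9%) had an IDR summit, against the background of 53%, and without the members 19 of 24 (79.2%). Within 10 kb of TSSs, in place of the whole gene span, the count was 19 of 29, with no background counted that way. Gene length was not taken into account, neighbouring genes share peaks, and the gap from the background was not tested.

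The strongest peaks near other BMP genes lay at the promoters of neighbouring genes in 3 of 5 cases. For Med, the co-Smad gene, the peak (642.6) was 16 bp from the TSS of Mnat9. For the ligand gene gbb the peak (626.1) was 112 bp from that of eIF6. For vkg, a collagen IV gene, the peak (334.6) was 207 bp from that of Rtnl1. The exceptions were nej, the CBP coactivator gene, with a peak (350.9) 667 bp upstream of its own TSS, and cv-2, a BMP-binding protein gene, with one (280.6) in its own intron, 15252 bp past its TSS.

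The dorsal target list of 27 genes, with dorsal expression or known to respond to Dpp in embryo or disc, holds the other 5 members. In it, 2 genes (7.41%) had an IDR promoter summit, against the background of 15.8%. With the 3106 strongest candidates of a single replicate in place of the IDR set, the count was 5 without replicate 2 and 1 without replicate 3. The 2 genes were C15, an amnioserosa homeobox gene (130.8, rank 1864), and scyl, a growth regulator gene (163.8, rank 1255). Both had a lower signal in replicate 2 (39.4 and 56.4) than in replicate 3 (89.0 and 113.3), lists whose scales may differ. Within 10 kb, 18 of 27 (66.7%) had an IDR summit, against the background of 53%, and without the members 14 of 22 (63.6%). Within 10 kb of TSSs the count was 15 of 27. Here too gene length was not taken into account and the gap from the background was not tested. The 5 strongest of the rest were ush, Ance, grh, Doc2 and zen. The ush gene, which encodes a zinc finger cofactor of GATA factors, had 10 IDR summits. The best, with a signal of 1514.9 (rank 4), lay in its intron. That summit was 4871 bp past the TSS of ush and 1403 bp from the nearest TSS, that of cbt. For Ance, an angiotensin-converting enzyme gene, the peak (277.4) lay 63 bp from the TSS of Smg5. For grh, which encodes an epidermal transcription factor, the peak (261.6) lay in its intron, 2058 bp past its TSS. The best peaks of the 7 members ran from 126.4 at Doc1 to 232.8 at brk. Those of ush, Ance and grh were higher, but these genes were named for strong peaks and do not stand for the list.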

How the data were processed

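Peak lists from ChIP-seq of 2 replicates, 1 group, were analysed on dm6. Per the text record deposited with each sample, candidates came from a replicate's alignments, or both replicates' pooled, and a shared control file, and the IDR set from those 3 lists. The aligner, peak caller, IDR threshold and read depth are not given in the sources at hand, so precision is known only as counting error over genes. The authors' deposited signal is a peak score of unstated scale (column 7) and summits come from column 10. Signal ranks peaks within a list. Replicate signals are set side by side, in most cases with their ranks, though no source states that their scales are equal.

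Genes, TSSs and introns came from Ensembl release 115 (BDGP6 version 54) and sequence from RefSeq Release 6, the same assembly as dm6. All list names matched. Python 3.11.15, pandas 2.3.3, numpy 2.4.6 and scipy 1.17.1 were used. Placement was checked with 2182 simulated summits at known positions, of which 0 were misplaced. Promoter is within 500 bp of a coding TSS, and nearby is the gene span with 10 kb on each side. Replicate matches lie within 100 bp. No test was made: there is 1 group, and the members and lists were chosen with earlier results of these data known. All members were named; of the lists, each gene with an IDR promoter summit and the 5 strongest others, by their best peak within 10 kb. The replicate-only and near-threshold candidates and the 3 words of 8 letters were picked after seeing their values. Alternatives covered the peak set, each replicate left out, the TSS window, the flank, the match distance and the sequence window. The other dm3 lists were not used, as no dm3 annotation was at hand.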

Additional observations from a re-analysis of the deposited data

How the results depend on the processing

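Of 68 alternatives over 12 results, 53 stayed within 1.5 times or 1 SD of the reported value and 15 moved further. No member had an IDR promoter peak in any of them except with a 1000 bp window, which gave 1 (brk). With the 1553 strongest IDR peaks, the distinct summits around members fell from 14 to 6, and all 6 were matched in both replicates. With the same peaks, BMP promoter genes fell from 4 to 1 and dorsal target promoter genes from 2 to 1. Dorsal target genes within 10 kb fell from 18 to 9. Distinct summits numbered 8 within 5 kb and 24 within 20 kb. A 1000 bp window gave 9 BMP and 4 dorsal target promoter genes, and a 250 bp window gave 1 dorsal target gene. Windows holding any searched word numbered 1 with 50 bp each side and 6 with 150 bp, against 3. With 1 replicate left out and as many of the other's strongest candidates taken, members counted 0 to 0 at promoters, 2 to 3 in introns and 8 to 8 within 10 kb, with 17 to 17 distinct summits. BMP genes counted 4 to 4 at promoters and 21 to 23 within 10 kb. Dorsal target genes counted 15 to 19 within 10 kb but 1 to 5 at promoters, with 5 when replicate 2 was left out and 1 when replicate 3 was. The cause was not tested. No paired analysis was possible because there is 1 group. Read depth is unknown, so what it limits cannot be stated.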
